A study of Mus musculus with 6 samples.

Results

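The very long chain fatty acid (FA) elongases are the 7 genes *Elovl1* to *Elovl7*, found among the 46517 genes of the count files by Ensembl identifier and GENCODE symbol, with 1 identifier each. The family was chosen by the measured rise of *Elovl3*, among the largest of all genes in H3atKO against floxed samples. The values of *Elovl3* in this comparison are therefore given as a description, without a test, and are not used as support for anything else. The other 6 members entered by family name, whatever their values, although the direction of other members was known when the family was chosen.

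RNA-seq was performed on inguinal white adipose tissue (IngWAT), a subcutaneous fat depot, from mice of the C57Bl6 strain in 3 floxed and 3 H3atKO samples. Floxed mice carry an *Hdac3* allele that Cre can delete. H3atKO mice carry this allele with the transgene B6:FVB-Tg(Adipoq-cre)1Evdr/J, in which the adiponectin promoter drives Cre in adipocytes, so that the blood vessel, immune and stromal cells of the depot are not targeted. Whether the floxed controls carried a Cre transgene is not given in the sources used here. All mice received chow, were 5 to 9 months old per the labels and, per the study's methods, male. Each sample was a pool of RNA from 2 or 3 mice of 1 genotype, so that the spread between samples is a spread between pools.

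Elongases are enzymes of the endoplasmic reticulum that catalyse the condensation of an acyl-CoA with malonyl-CoA, the first and rate-limiting step of the elongation cycle. A reduction, a dehydration and a further reduction, carried out by other enzymes, complete each turn and lengthen the chain. ELOVL1, ELOVL3, ELOVL6 and ELOVL7 prefer saturated and monounsaturated acyl-CoAs, ELOVL2 and ELOVL5 prefer polyunsaturated ones, and ELOVL4 makes the longest chains. In fat, *Elovl3* is known as a gene of brown adipocytes that responds to cold, and *Elovl6* as a lipogenic gene whose product elongates palmitate to stearate.

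The members share a catalytic motif, the histidine box, and the coding sequence around it is shown for all 7 because it places *Elovl3* beside *Elovl6*. The sequences were cut from the coding sequence of 1 GENCODE M21 transcript per gene (GRCm38), they are written on the coding strand, and capitals mark the 5 codons of the box. A search of each coding sequence found 1 such box.
Elovl1: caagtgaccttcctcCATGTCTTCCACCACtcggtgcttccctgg
Elovl7: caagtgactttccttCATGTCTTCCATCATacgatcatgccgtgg
Elovl3: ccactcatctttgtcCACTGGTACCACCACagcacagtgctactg
Elovl6: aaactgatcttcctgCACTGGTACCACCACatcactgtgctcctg
Elovl2: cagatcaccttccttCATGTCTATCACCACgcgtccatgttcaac
Elovl5: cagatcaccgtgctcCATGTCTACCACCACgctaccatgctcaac
Elovl4: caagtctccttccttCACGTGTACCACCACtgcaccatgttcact

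*Elovl3* and *Elovl6* had the same 15 bases in the box, whereas each of the other 5 members had its own. Between *Elovl1* and *Elovl7*, and among *Elovl2*, *Elovl4* and *Elovl5*, the bases of the box differ only in codons for the same amino acids. Coding sequences ran from 267 codons in *Elovl6* to 312 in *Elovl4*. Over the 21 pairs of members, the coding sequences were identical at between 56.8% and 66.2% of aligned bases. The pairs with the highest identity were *Elovl2* with *Elovl5* at 66.2% and *Elovl1* with *Elovl7* at 65.2%, followed by *Elovl4* with *Elovl6* at 63.3% and *Elovl3* with *Elovl6* at 63.1%.

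Between 23865507 and 35200685 reads were counted on genes in a sample, and a floor of 3 counts lay at 0.0852 to 0.126 cpm (counts scaled to the library size). *Hdac3*, the deleted gene, had 68.9, 80.3 and 65.8 cpm in floxed and 27.4, 21.1 and 12.9 cpm in H3atKO samples in replicates 1, 2 and 3, lower in every H3atKO pool. Its fold change on the log2 scale was -1.83 ± 0.32 (SE), with an adjusted p of 0.0213. Genes of the mitochondrial genome took 6.92% to 12.9% of the counts in floxed and 26.9% to 35.3% in H3atKO samples. Across 14922 genes, the log2 fold change between genotypes followed the GC content of the longest transcript with a Spearman rho of -0.71, given as a description since genes are not independent. Values after removal of this trend are called GC-corrected below, and the trend and the genotype cannot be told apart.

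Levels are given in cpm of libraries scaled with TMM (trimmed mean of M values), and per kb of exon where genes are compared with each other. Of the 7 members, 6 passed the filter of 1 cpm in at least 1 sample and were among the 14967 genes tested. *Elovl4* passed it through H3atKO replicate 1 alone, so that it had to be higher there, and *Elovl2* did not pass. This leaves *Elovl1*, *Elovl5*, *Elovl6* and *Elovl7*, which reached 1 cpm in both genotypes and did not pass the filter by their change. Because the direction of other members was known when the family was chosen, the counts of these 4 beside all genes are a description. In these 4 members, the 3 H3atKO samples lay on 1 side of the 3 floxed samples, which was also the case for 51.7% of all genes tested (23.1% higher and 28.6% lower in H3atKO). The 4 members were called at an adjusted p under 0.05 (limma voom, Benjamini-Hochberg over all genes tested), 3 of them higher and 1 lower in H3atKO. Over all genes tested, 16.5% were called, 9.42% higher and 7.07% lower. GC-corrected, *Elovl5* and *Elovl6* were called, both higher, against 8.5% of all genes (5.39% higher and 3.11% lower). With the replicate number as a block the 4 were called, 3 higher and 1 lower, against 53.5% of all genes (24.8% higher and 28.7% lower). Because each sample is bulk tissue, fewer cells of a type and less RNA per cell cannot be told apart.

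**Figure D1:**
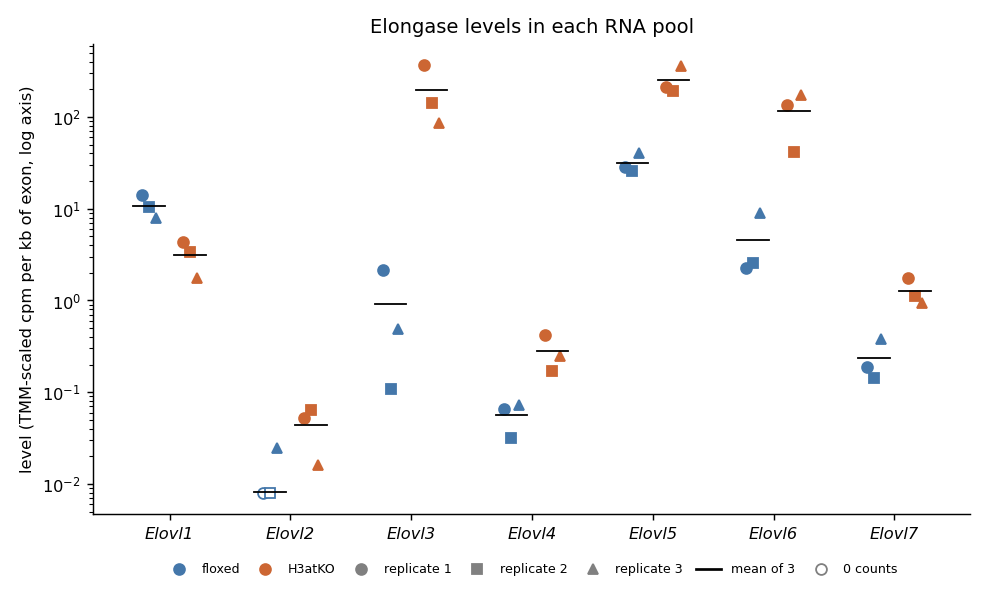
Level of each elongase in TMM-scaled cpm per kb of exon, on a log axis, in the 3 floxed (blue) and 3 H3atKO (orange) pools; marker shapes give the replicate number, bars the mean of 3, and open markers pools with 0 counts, set at the foot of the axis. *Elovl5* led in floxed pools at a mean of 31.4, and *Elovl5*, *Elovl3* and *Elovl6* lay together in H3atKO pools at means of 255, 199 and 117.

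In floxed IngWAT, *Elovl5* had the highest level of the family with 31.4 ± 7.96 cpm per kb (SD, n = 3), above 94.0% of the genes tested. *Elovl1* came next with 10.8 ± 3.17, followed by *Elovl6* with 4.56 ± 3.77, and the ranges of these neighbours overlapped. *Elovl3* was far lower at 0.912 ± 1.08 cpm per kb, its range overlapped that of *Elovl7* at 0.237 ± 0.127, and only 23.0% of the genes tested lay below it. *Elovl4* at 0.0565 ± 0.0216 and *Elovl2* at 0.00817 ± 0.0142 were close to the limit of the counts.

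In H3atKO IngWAT, 3 members were among the most highly expressed genes of the tissue. *Elovl5* had 255 ± 92.9 cpm per kb (SD, n = 3), *Elovl3* 199 ± 147 and *Elovl6* 117 ± 67.2, with overlapping ranges between neighbours. They lay above 99.4%, 99.2% and 98.4% of the genes tested. *Elovl1*, second in floxed pools, now followed these with a mean of 3.14 cpm per kb (1.74 to 4.31), and its range overlapped that of *Elovl7* at 1.27 ± 0.426, although *Elovl1* was above *Elovl7* in each of the 3 pools.

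*Elovl6* (chr3:129532355-129638495, plus strand, GRCm38) encodes the elongase that takes palmitate, the product of FA synthase, to stearate. Its start overlaps an exon of the antisense gene *Gm35986*, which was counted 0, 2 and 10 times in floxed and 26, 10 and 28 times in H3atKO pools, and *Gm43072*, on its own strand, at most 2 times. *Elovl6* had 14.4, 16.3 and 57.3 cpm in floxed and 874, 269.9 and 1108 cpm in H3atKO replicates 1, 2 and 3. Every H3atKO pool was above every floxed pool, and floxed replicate 3 was the highest of its genotype by more than 3 times. *Elovl6* rose 27.0-fold, a log2 fold change of 4.76 ± 0.69 (SE) with an adjusted p of 0.0148, and it ranked 35 of 14967 genes by log2 fold change. Between pools of the same number the ratio of H3atKO to floxed was 60.8, 16.6 and 19.3. The GC-corrected log2 fold change was 4.09 (adjusted p = 0.0180), while the call was lost without H3atKO replicate 3 (adjusted p = 0.0640) or without floxed replicate 2 (adjusted p = 0.0664).

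*Elovl5* (chr9:77917364-77984519, plus strand) encodes the elongase of polyunsaturated FAs, which acts together with the desaturases of the *Fads* genes. Floxed pools had 99.3, 89.9 and 142 cpm and H3atKO pools 753, 669 and 1273 cpm in replicates 1, 2 and 3. The pools of a genotype were close to each other, and those of H3atKO were all higher. *Elovl5* rose 7.98-fold, a log2 fold change of 3.00 ± 0.32 (SE) with an adjusted p of 0.00870, the smallest of the family. The ratios of same-numbered pools, 7.58, 7.44 and 8.94, were the most even among the members. The GC-corrected log2 fold change was 2.44 (adjusted p = 0.00895), and without floxed replicate 2 the adjusted p was 0.0516.

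*Elovl7* (chr13:108214404-108285683, plus strand), another elongase of saturated FAs, was low in both genotypes. Floxed replicates had 34, 24 and 63 counts and H3atKO replicates 171, 88 and 60, that is 0.746, 0.577 and 1.53 cpm against 7.04, 4.49 and 3.79 cpm. The groups did not overlap in cpm. In raw counts, H3atKO replicate 3 was just below floxed replicate 3. *Elovl7* rose 5.72-fold, a log2 fold change of 2.52 ± 0.52 (SE) with an adjusted p of 0.0295. The call was lost after GC correction, where the log2 fold change was 1.64 (adjusted p = 0.0737), and without TMM, on library sizes alone, where it was 1.65 (adjusted p = 0.0603). It was lost too in 5 of the 6 fits without 1 pool, with adjusted p between 0.0630 and 0.125, and kept without floxed replicate 3 (adjusted p = 0.00842).

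*Elovl1* (chr4:118428093-118432953, plus strand), which elongates saturated FAs to the very long chains of sphingolipids, was the one member that fell. It had 38.6, 28.6 and 21.4 cpm in floxed and 11.7, 9.18 and 4.74 cpm in H3atKO replicates 1, 2 and 3. The highest H3atKO pool was below the lowest floxed pool. The log2 fold change was -1.81 ± 0.43 (SE) with an adjusted p of 0.0365, and floxed pools were 3.29, 3.12 and 4.52 times higher than H3atKO pools of the same number. *Elovl1* has the highest GC content of the family, 52.5% of its longest transcript against 42.3% to 49.5% in the others. GC-corrected, its log2 fold change was -1.05 and the call was lost (adjusted p = 0.0558), and with GC correction and the replicate number as a block it was -1.03 (adjusted p = 0.0280). Of the 6 fits without 1 pool, only that without floxed replicate 3 kept the call (adjusted p = 0.0101), and the others gave an adjusted p between 0.0726 and 0.128. Exons of *Cdc20* lie on the opposite strand within *Elovl1*, and *Cdc20* was counted 103, 27 and 28 times in floxed and 17, 3 and 1 times in H3atKO pools, against 75 to 1759 times for *Elovl1*.

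*Elovl4* (chr9:83778692-83806277, minus strand), the elongase of retina and skin that makes the longest chains, was counted 9, 4 and 9 times in floxed and 31, 10 and 12 times in H3atKO pools. These correspond to 0.198, 0.0962 and 0.219 cpm against 1.28, 0.510 and 0.759 cpm. All H3atKO pools were above the floxed pools, at levels just over the limit of the counts. The log2 fold change was 2.27 ± 0.73 (SE) and did not pass the test, with an adjusted p of 0.0630 and a 95% interval from 0.57 to 3.97. Because *Elovl4* entered the test only through its highest pool, these values and the following ones are no support for a difference. The adjusted p was under 0.05 with the replicate number as a block (log2 fold change 2.28, adjusted p = 0.0211) and in edgeR's quasi-likelihood test (adjusted p = 0.0417), where 31.2% of all genes were called, 12.8% higher and 18.4% lower.

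*Elovl2* (chr13:41182381-41220405, minus strand), the elongase that follows ELOVL5 on the way to docosahexaenoic acid, was close to absent. Floxed pools had 0, 0 and 4 counts of it, and H3atKO pools 5, 5 and 1. The genotypes overlapped, and no fold change is given at this depth.

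*Elovl3* (chr19:46131897-46135694, plus strand) was counted 192, 9 and 40 times in floxed and 17529, 5559 and 2720 times in H3atKO replicates 1, 2 and 3. In cpm these were 4.22, 0.216 and 0.972 against 722, 283 and 172. The lowest H3atKO pool was above the highest floxed pool, and pools differed widely within both genotypes. The log2 fold change was 8.35, ranking 3 of 14967 genes, and it was 8.43 after GC correction and 7.48 with library sizes alone. Same-numbered pools differed 171, 1310 and 177 times, the extreme value being that of replicate 2, where the floxed pool had 9 counts. *Pitx3*, which overlaps an exon on the other strand, had 6 counts in floxed replicate 1 and 0 counts in the other pools.

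**Figure D2:**
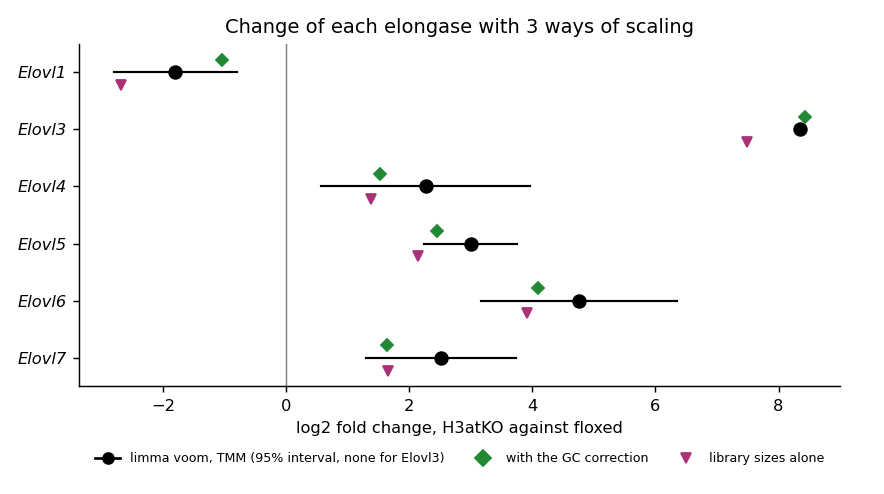
Log2 fold change of H3atKO against floxed for the 6 tested elongases from limma voom with TMM (black, bars are 95% intervals, none for *Elovl3*), after GC correction (green) and with library sizes alone (purple). *Elovl1* lay below 0 and the others above 0 with each scaling, *Elovl1* between -2.68 and -1.05 and *Elovl6* between 3.91 and 4.76.

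The direction of each tested member was the same with TMM, GC correction and library sizes alone, while these scalings moved the median log2 fold change of all genes tested from -0.09 to 0.02 and -0.94. With library sizes alone, *Elovl1* at -2.68 was below that median of -0.94 and the other members were above it.

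The elongase transcripts as a whole were higher in H3atKO pools, and their makeup differed. The summed level of the 7 members was 47.0, 38.8 and 58.2 cpm per kb in floxed and 722, 380.2 and 624 cpm per kb in H3atKO replicates 1, 2 and 3. Without *Elovl3* the sum was 47.1 ± 9.68 in floxed and 377 ± 151 in H3atKO pools (SD, n = 3). These sums are descriptions, since *Elovl3* and the direction of other members were known when the family was chosen.

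*Elovl5* made up 60.0%, 65.7% and 69.5% of the summed level in floxed pools and 29.6%, 50.0% and 58.0% in H3atKO pools. The share of *Elovl1* was 30.2%, 27.0% and 13.5% in floxed and 0.597%, 0.885% and 0.279% in H3atKO pools. *Elovl6* took 4.76%, 6.52% and 15.3% of the floxed sum and 18.8%, 11.0% and 27.6% of the H3atKO sum. These shares fall as *Elovl3* rises, so they were also taken over the sum without *Elovl3*. Of that sum, *Elovl5* held 62.9%, 65.9% and 70.1% in floxed and 60.0%, 80.3% and 67.4% in H3atKO pools, which overlapped. *Elovl6* held 4.99%, 6.53% and 15.4% in floxed and 38.2%, 17.7% and 32.1% in H3atKO pools, and *Elovl1* 31.6%, 27.1% and 13.6% against 1.21%, 1.42% and 0.324%. The shares of *Elovl6* and *Elovl1* thus did not overlap between genotypes, the first being higher and the latter lower in H3atKO.

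*Elovl3* held 4.54%, 0.282% and 0.846% of the sum in floxed and 50.6%, 37.7% and 14.0% in H3atKO pools. It was the leading elongase in H3atKO replicate 1, and *Elovl5* led in the other 5 pools. Together, the members that prefer saturated and monounsaturated chains (*Elovl1*, *Elovl3*, *Elovl6* and *Elovl7*) took 34.8% ± 4.80 of the sum in floxed and 54.1% ± 14.6 in H3atKO pools (SD, n = 3). Without *Elovl3* the class took 33.6% ± 3.65 in floxed and 30.7% ± 10.2 in H3atKO pools of the sum without it, and the genotypes overlapped. In floxed pools *Elovl1* led this class in replicates 1 and 2 and *Elovl6* in replicate 3, and in H3atKO pools the class was nearly all *Elovl3* and *Elovl6*.

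**Figure D3:**
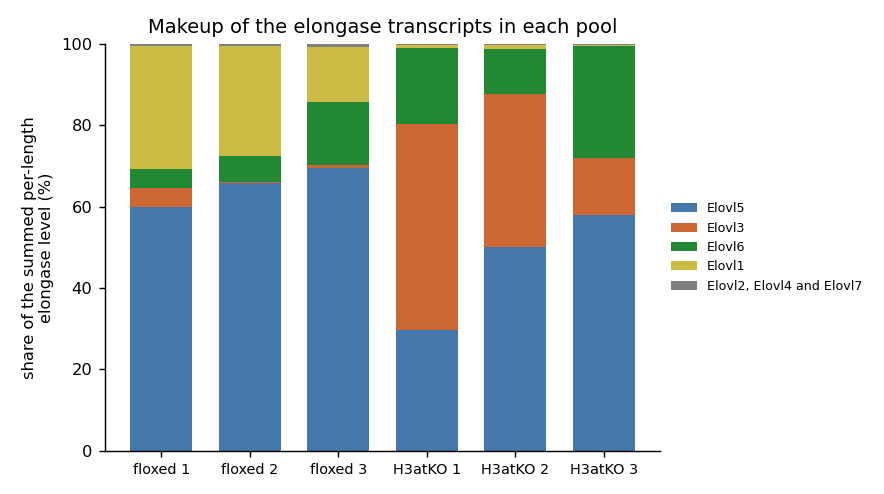
Share of each elongase in the summed per-length level of the family (percent, stacked to 100) in each of the 6 pools. *Elovl1* filled 13.5% to 30.2% of the floxed bars and under 1% of the H3atKO bars, where *Elovl3* filled 14.0% to 50.6%.

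*Elovl3* is often read as a mark of brown or beige fat together with *Ucp1*, which encodes the uncoupling protein of brown fat, and *Dio2*, which encodes the deiodinase that activates thyroid hormone. *Ucp1* had 12.6, 0.577 and 3.33 cpm in floxed and 158, 1.33 and 11.5 cpm in H3atKO replicates 1, 2 and 3. The genotypes overlapped, and the pools of replicate 2 were the lowest of both. The log2 fold change of *Ucp1* was 2.33 ± 1.87 (SE) with an adjusted p of 0.353. It passed with the replicate number as a block (log2 fold change 2.90, adjusted p = 0.00536). *Dio2* had 0.263, 0.313 and 1.36 cpm in floxed and 49.3, 6.83 and 57.9 cpm in H3atKO pools. It rose by 5.78 ± 1.31 (SE) on the log2 scale with an adjusted p of 0.0336, and GC-corrected it missed the threshold (adjusted p = 0.0544).

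Pools of the same number thus gave *Ucp1* ratios of 12.5, 2.30 and 3.46 beside *Elovl3* ratios of 171, 1310 and 177. In H3atKO replicate 2, *Ucp1* was at 1.33 cpm and *Elovl3* at 283 cpm. In the same pool *Elovl6* and *Dio2* had their lowest H3atKO values. Cell type markers also set this pool apart. The summed level of B lymphocyte markers was 3.82 cpm in it and 309 and 483 cpm in H3atKO replicates 1 and 3, that of T lymphocyte markers 14.2 against 154 and 112 cpm, and that of skeletal muscle markers 3490 against 404 and 2.84 cpm. The part of these markers in the values was not tested.

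**Figure D4:**
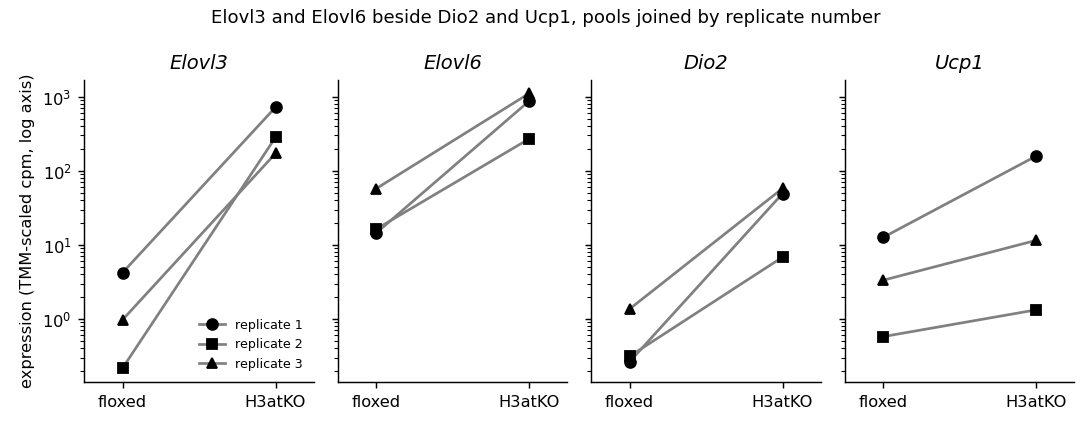
Expression of *Elovl3*, *Elovl6*, *Dio2* and *Ucp1* in TMM-scaled cpm on a log axis, with lines joining the floxed and H3atKO pools of the same replicate number. Each line rises, and the H3atKO pools of *Ucp1* span 1.33 to 158 cpm, overlapping the floxed pools.

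Likeness to each member was described by Pearson's r of log2 cpm over the 6 samples, among genes with a mean of at least 1 log2 cpm. The 6 points share genotype, replicate number and the trend with base composition, so that r is given with no p. Among the members, *Elovl1* ran opposite to the others, with r between -0.96 and -0.77, and the other 5 ran together with r from 0.89 for *Elovl3* with *Elovl6* to 0.98 for *Elovl5* with *Elovl6*. *Elovl3*, by which the family was chosen, and *Elovl4*, which entered through its highest pool, were bound to run with members that rose. Among *Elovl5*, *Elovl6* and *Elovl7* alone, r was 0.93 to 0.98.

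The genes most like *Elovl3* were *Noct* (r = 0.998), which encodes the rhythmic phosphatase nocturnin, *Rasef* (0.992), *Mreg* (0.990), *Qrsl1* (0.990) and the chemokine gene *Cxcl10* (0.989). *Rasef* had 0.681, 0.0481 and 0.243 cpm in floxed and 49.7, 20.7 and 6.39 cpm in H3atKO pools, the same order of pools as *Elovl3*. *Dio2* was the gene most like *Elovl6* (r = 0.997), followed by *Dnajc9* (0.997) and *Zbtb11* (0.996). The genes most like *Elovl5* were *Arpc5l* (0.999), *Tmed5* (0.997) and *Cycs* (0.996), which encodes cytochrome c. For *Elovl1* they were *Ecscr*, an endothelial gene, *Odf2* and *Spns2*, a transporter gene of sphingosine 1-phosphate, at r of 0.999 or more. GC-corrected, r stayed at 0.994 for *Ecscr* and was 0.0774 for *Spns2*. *Elovl4* was most like *Ddx21*, *Gprin3* and *Mapk1ip1l*, and *Elovl7* most like *Snrpd1*, *Pole4* and *Vopp1*. GC-corrected, r was 0.233 for *Gprin3* and 0.580 for *Snrpd1*.

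Promoter sequence is shown for *Elovl5* and *Elovl6*, which rose, and for *Elovl1*, which fell. The windows end at the base before the start of the gene and are written on the gene's strand, from the RefSeq promoter table (GRCm38.p6): chr9:77917115-77917363 for *Elovl5*, chr3:129532136-129532354 for *Elovl6* and chr4:118427843-118428092 for *Elovl1*, all on the plus strand. Capitals mark matches on either strand to the CCAAT box (CCAAT), the GC box (GGGCGG) and the E-box (CACGTG). *Elovl3* has no sequence shown.
Elovl5: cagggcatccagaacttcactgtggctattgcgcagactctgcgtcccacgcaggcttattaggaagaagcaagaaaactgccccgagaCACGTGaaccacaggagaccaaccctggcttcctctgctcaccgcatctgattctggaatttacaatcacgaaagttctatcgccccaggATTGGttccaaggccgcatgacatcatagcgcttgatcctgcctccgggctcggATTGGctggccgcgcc
Elovl6: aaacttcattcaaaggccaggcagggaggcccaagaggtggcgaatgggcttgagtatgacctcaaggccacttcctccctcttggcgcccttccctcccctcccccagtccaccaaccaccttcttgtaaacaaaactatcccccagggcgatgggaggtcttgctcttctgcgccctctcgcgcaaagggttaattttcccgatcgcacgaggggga
Elovl1: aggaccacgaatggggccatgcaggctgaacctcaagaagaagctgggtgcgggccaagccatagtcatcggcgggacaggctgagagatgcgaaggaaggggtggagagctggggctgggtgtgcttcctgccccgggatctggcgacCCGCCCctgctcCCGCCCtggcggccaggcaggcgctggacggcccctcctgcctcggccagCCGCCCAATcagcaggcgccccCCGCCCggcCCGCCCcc

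The *Elovl5* window held 1 E-box and 2 CCAAT boxes, and that of *Elovl1* 5 GC boxes and 1 CCAAT box that overlaps 1 of them. That of *Elovl6* held none of these letters and 1 AGGTCA (on the other strand, in lower case), a single repeat of nuclear receptor sites. Sites with the repeat in tandem (DR1 and DR4) and the sterol response element had no match in the windows shown. In 32851 promoters of the table, 6.02% held the E-box, 33.8% the CCAAT box, 32.7% the GC box and 14.0% AGGTCA. These were windows of 250 bases not ended at the start of the gene, while the windows of *Elovl6* and *Elovl5* had 219 and 249 bases. Among windows not shown, that of *Elovl7*, which also rose, held 3 GC boxes, that of *Elovl4* 2 and the longer one of *Elovl2* 5. A second *Elovl1* window, within the gene, held 2 GC boxes and 1 AGGTCA. These matches describe letters in the windows and not binding.

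Genes around the elongases were listed by role, 7 lists in all. Over these lists 18 of 59 genes tested were called, 16 higher and 2 lower in H3atKO, against 16.5% of all genes tested. With the replicate number as a block 45 were called, 28 higher and 17 lower, against 53.5% of all genes. List medians stand beside the median log2 fold change of all genes tested, -0.09.

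The enzymes that complete the elongation cycle had 2 of 6 tested genes higher, with a median log2 fold change of 0.65. *Hsd17b12*, the ketoacyl-CoA reductase of the cycle, had 178, 174 and 282 cpm in floxed and 1344, 1400.1 and 1442 cpm in H3atKO pools. It rose by 2.76 ± 0.26 (SE) on the log2 scale with an adjusted p of 0.00793. *Hacd2*, a dehydratase, rose by 1.67 ± 0.21 with an adjusted p of 0.0106. *Tecr*, the final reductase of the cycle, had a log2 fold change of -1.23 (adjusted p = 0.192), passed with the replicate block (adjusted p = 0.0158) and with library sizes alone (adjusted p = 0.0381), and stood at 0.50 after GC correction. With the replicate block 3 of the list were higher and 1 lower. With library sizes alone the list median was -0.21, against -0.94 for all genes, while *Hsd17b12* and *Hacd2* stayed higher.

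Of 8 genes around the supply of malonyl-CoA, palmitate and NADPH, 4 were higher in H3atKO, and the median was 1.46. The list includes *Mlycd*, whose product, malonyl-CoA decarboxylase, removes malonyl-CoA (log2 fold change -0.32, adjusted p = 0.735). *Me1*, the malic enzyme that makes NADPH, had 165, 182 and 202 cpm in floxed and 1898, 3730 and 2989 cpm in H3atKO pools. It rose by 3.93 ± 0.30 (SE) with an adjusted p of 0.00615. *Acss2*, which makes acetyl-CoA from acetate, rose by 2.98 (adjusted p = 0.00867), the FA synthase gene *Fasn* by 2.41 (adjusted p = 0.0271) and the acetyl-CoA carboxylase gene *Acaca* by 1.76 (adjusted p = 0.0126). GC-corrected, 7 of the 8 genes were higher, *Mlycd* among them (log2 fold change 1.86, adjusted p = 0.0119), and the median was 2.39.

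The desaturases, which work on the same acyl chains as the elongases, had 2 of 6 tested genes higher with a median of 0.21. *Scd2* had 31.6, 30.2 and 86.4 cpm in floxed and 449, 1251 and 778 cpm in H3atKO pools, and rose by 4.13 ± 0.52 (SE) with an adjusted p of 0.0106. *Scd3* rose by 5.14 ± 1.04 with an adjusted p of 0.0277, from at most 0.615 cpm in floxed to between 3.98 and 25.5 cpm in H3atKO pools. It reached the filter in H3atKO pools alone, so that its call is no independent support. *Fads1* and *Fads2*, whose products desaturate the chains that ELOVL5 elongates, had log2 fold changes of -0.87 (adjusted p = 0.0600) and -1.40 (adjusted p = 0.143). With the replicate block they were lower (adjusted p = 0.0124 and 0.0267), the list having 3 higher and 2 lower, and after GC correction they stood at -0.17 and -0.28. With library sizes alone the list median was -0.64, and *Scd2* and *Scd3* were still higher. *Fads1* at -1.71 (adjusted p = 0.00948) and *Fads2* at -2.28 (adjusted p = 0.0330) were lower with this scaling.

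Transcription factors known to act on elongase genes had 1 gene higher and 1 lower of 14, and a median of -1.46. *Ppara*, the receptor for FAs, had 6.24, 4.59 and 5.83 cpm in floxed and 25.6, 30.8 and 14.2 cpm in H3atKO pools, and rose by 2.05 ± 0.39 (SE) with an adjusted p of 0.0248. With library sizes alone its log2 fold change was 1.19 and the call was lost (adjusted p = 0.0664). *Mlxipl*, which encodes the glucose-responsive factor ChREBP, had 74.2, 54.5 and 30.4 cpm in floxed and 12.5, 16.0 and 6.51 cpm in H3atKO pools. Its log2 fold change was -2.16 ± 0.49 (SE) with an adjusted p of 0.0343. GC-corrected it was -0.50 and not called (adjusted p = 0.193), and the list median was -0.10. *Srebf1*, added after its values were seen because its product is the best known activator of *Elovl6*, had 102, 38.1 and 13.3 cpm in floxed and 6.14, 12.3 and 5.31 cpm in H3atKO pools (log2 fold change -2.33, adjusted p = 0.0921, GC-corrected -0.29). With the replicate number as a block 4 factors were higher and 8 lower, *Srebf1* among the latter (adjusted p = 0.0136).

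**Figure D5:**
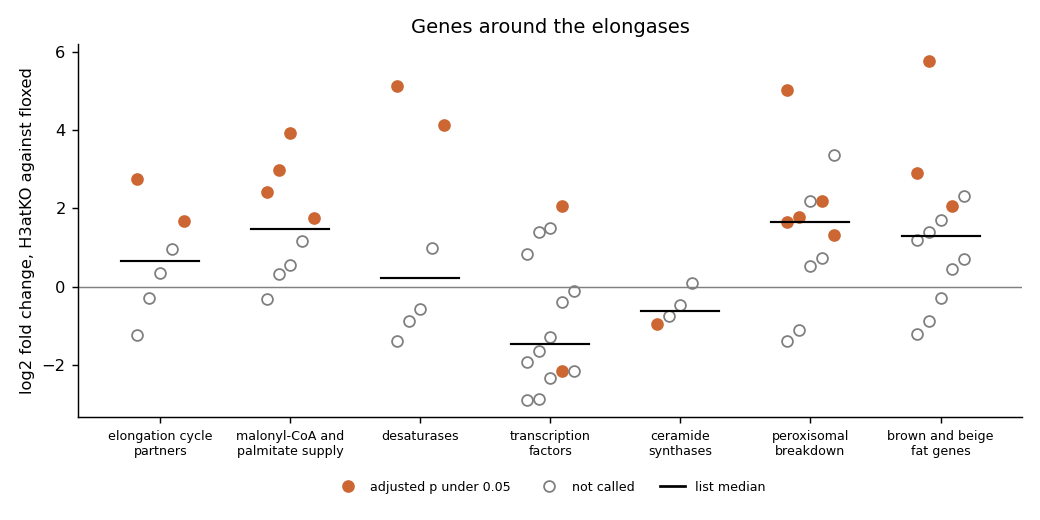
Log2 fold change of H3atKO against floxed for each tested gene of the 7 lists of genes around the elongases; filled points had an adjusted p under 0.05 (limma voom), open points did not, and bars are list medians. Called genes lay above 0 apart from *Mlxipl* at -2.16 and *Cers5* at -0.96.

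Ceramide synthases join acyl-CoAs to sphingoid bases. Of 4 tested, *Cers5* was lower, with 65.4, 72.8 and 59.9 cpm in floxed and 32.7, 34.0 and 34.8 cpm in H3atKO pools. Its log2 fold change was -0.96 ± 0.22 (SE) with an adjusted p of 0.0353. GC-corrected or with the replicate block, 2 of the 4 were lower.

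Very long chain FAs are shortened in peroxisomes, and of 11 genes of this route 5 were higher, with a median of 1.64. *Ehhadh*, the bifunctional enzyme of peroxisomal beta-oxidation, had 142, 64.1 and 135 cpm in floxed and 4679, 3316 and 2815 cpm in H3atKO pools. It rose by 5.03 ± 0.38 (SE) with an adjusted p of 0.00615. The transporter gene *Abcd3* rose by 2.20 (adjusted p = 0.00899) and the thiolase and carrier gene *Scp2* by 1.77 (adjusted p = 0.0117). With the replicate block 8 were higher and 2 lower.

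Of 12 tested brown and beige fat genes, 3 were higher, and the median was 1.29. These were *Dio2* and *Ppara*, given above, and *Otop1*, which rose by 2.91 ± 0.47 (SE) with an adjusted p of 0.0191. *Prdm16* and *Ebf2* went the other way, with log2 fold changes of -1.21 (adjusted p = 0.0785) and -0.89 (adjusted p = 0.0991). GC-corrected, 5 were higher and 1 lower, *Ebf2* at -1.40 (adjusted p = 0.0236). With the replicate block 7 were higher and 2 lower, *Prdm16* (adjusted p = 0.0251) and *Ebf2* (adjusted p = 0.00973).

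Markers of cell types were set beside the elongases in 11 lists, none of which holds an elongase. The summed level of the endothelial list was 627 to 968 cpm in floxed and 431 to 574 cpm in H3atKO pools, with *Pecam1* and *Cdh5* called lower of 6 genes. The Schwann cell list lay at 95.9 to 123 against 44.8 to 65.1 cpm, with *Prx* among the genes called lower. The hepatocyte list was higher in sum, 2369 to 4177 against 6254 to 12098 cpm, through *Cyp2e1*, while *Alb* and the list's mean log2 level were lower. The sums of the other 8 lists overlapped between genotypes, the adipocyte list among them with 13732 to 32029 against 15715 to 26996 cpm and no gene called. *Fabp4*, at 10341 to 22051 cpm, made up most of the adipocyte sum. Log2 fold changes in that list ran from -3.04 for *Lipe* (adjusted p = 0.0524) to 0.05 for *Fabp4*. Among these 8 lists, the mean log2 cpm of the fibroblast list went from 8.02 in floxed to 6.37 in H3atKO pools and that of the 4 tested skin genes from 1.32 to 2.99. The skin mean includes *Scd3* (5.14), which reached the filter in H3atKO pools alone, so its rise is no support. *Krt10*, *Krt79* and *Mogat1* changed by 1.00, 0.49 and 0.12, none called. The adipocyte mean went from 9.91 to 8.56, skeletal muscle from 6.53 to 3.21, B lymphocyte from 0.53 to 2.74 and T lymphocyte from 0.86 to 3.06.

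*Elovl3* is also expressed in sebaceous glands of the skin. Of the 12 skin and sebaceous genes, 6 had at most 3 counts in every pool. *Krt5* had at most 3 counts, *Krt14* at most 2, and *Awat1* and *Flg* 0 in every pool. *Krt10* lay at 0.988 to 2.87 cpm in floxed and 2.22 to 4.11 cpm in H3atKO pools, *Krt79* at 3.20 to 13.1 and 2.53 to 14.6 cpm, and *Mogat1* at 12.5 cpm or more in every pool. *Scd3* was the one gene of this list called higher. The part of the skin, fibroblast, endothelial, Schwann cell and hepatocyte lists in the elongase values was not tested.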

How the data were processed

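Poly(A)-selected RNA of 6 pools of IngWAT (3 floxed, 3 H3atKO) was sequenced from stranded libraries. Per the methods and processing notes, the authors trimmed reads with cutadapt 1.3, aligned them to GRCm38 with STAR 2.4.2a and deposited raw counts per Ensembl gene from HTSeq 0.6.1, without normalization. The strand setting is not given in the sources used here. Reads given to no gene, those with several places among them, stand in 5 tally lines (37.3% to 51.7% of the file total) and were left out of library sizes. Floors cover counting error only, since PCR copies were not marked.

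Symbols, positions, exon unions and GC content came from GENCODE M21 (GRCm38), where 46005 of 46517 identifiers matched. After the study's methods, the filter asked for 1 cpm or more in 1 sample or more, and libraries were scaled with TMM (edgeR 4.0.16) and compared by limma 3.58.1 voom on genotype in R 4.3.3, with Benjamini-Hochberg adjustment over all genes tested. The threshold of 0.05 was set here.

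The alternatives were edgeR's quasi-likelihood test, DESeq2 1.42.0, library sizes alone, RLE factors, no filter, a minimum of 10 counts per sample, quality weights, a block for the replicate number, a GC correction (robust loess, span 0.3), the block with that correction, a fit without genes of the mitochondrial genome, thresholds of 0.1 and 0.01, each sample left out in turn, and the longest transcript as length. Fits were tested on simulated data.

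The labels number the replicates 1 to 3 in both genotypes. Deviations from the group mean of same-numbered samples correlated at 0.510, 0.389 and 0.264, against a mean of -0.198 between different numbers, so the numbers were taken as pairs from the data. After GC correction these values were 0.395, 0.380 and 0.00279.

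The members, gene lists and tests were chosen with earlier results of these data known. Named genes are *Hdac3*, the elongases, up to 4 called genes with the largest change per list, *Ucp1* and *Dio2*, the genes most like each member (5 for *Elovl3*, 3 for the others) and defining markers of cell types. *Tecr*, *Fads1*, *Fads2*, *Srebf1*, *Prdm16*, *Ebf2* and the skin markers above 0 were added after their values were seen. Some genes that the rule names are not reported here.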

Additional observations from a re-analysis of the deposited data

Results flagged for a closer look

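Reads that align to several places stay outside the gene counts. Their alignments were 31.0% ± 3.68 (SD, n = 3) of all those tallied or counted in the floxed libraries. The H3atKO libraries had 44.7% ± 0.849 (SD, n = 3), and the ranges, 28.3% to 35.2% and 43.8% to 45.5%, did not overlap. The elongase values rest on the remaining reads, and the part of this difference in them was not tested.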

How the results depend on the processing

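No direction of a tested elongase reversed in any fit run. Of all genes tested, 2468 were called, against 6400 with DESeq2, 4665 with edgeR, 1272 with the GC correction, 5973 with library sizes alone (306 higher, 5667 lower), 8007 with the replicate block, 8443 with sample quality weights, 5986 at an adjusted p under 0.1 and 82 under 0.01. Without 1 sample the count ran from 1 (without floxed replicate 2, where 4333 genes had an unadjusted p under 0.05) to 6557 (without floxed replicate 3), with 246, 534 and 107 without H3atKO replicates 1, 2 and 3 and 239 without floxed replicate 1. Of the elongases other than *Elovl3*, 4 were called, against 2 with the GC correction, 1 under 0.01 and 0 to 5 without 1 sample. The 0 is that of limma voom without floxed replicate 2, where 4 had an unadjusted p under 0.05. It was 2 without H3atKO replicate 1, H3atKO replicate 2 or floxed replicate 1, and 1 without H3atKO replicate 3.

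Of the genes around the elongases 18 were called, against 37 with DESeq2, 32 with library sizes alone (13 higher, 19 lower), 45 with the replicate block, 33 with the block and the GC correction, 45 with quality weights, 37 under 0.1, 5 under 0.01, and 1 to 35 without 1 sample (1 without floxed replicate 2, 35 without floxed replicate 3, 9 and 8 without H3atKO replicates 1 and 3).

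*Elovl1* lost its call with the GC correction (-1.05) and under 0.01 (-1.81), and its log2 fold change ran from -2.12 to -1.46 without 1 sample. *Elovl4* passed with DESeq2 (2.37), edgeR (2.29), the replicate block (2.28), quality weights (2.84) and under 0.1 (2.27), with 1.93 to 2.53 without 1 sample, and was not tested without H3atKO replicate 1. *Elovl5* ran from 2.71 to 3.20 without 1 sample. *Elovl6* lost its call under 0.01 (4.76) and ran from 4.36 to 5.39. *Elovl7* lost its call with the GC correction (1.64), library sizes alone (1.65), the block with the GC correction (1.59) and under 0.01 (2.52), and ran from 2.23 to 2.91. The description of *Elovl3* moved to 10.29 with quality weights and ran from 7.31 to 9.42 without 1 sample, and its share of the H3atKO sum from 25.9% to 44.2%. The replicate block changed no elongase call other than that of *Elovl4*. The cause of these shifts was not tested. With 3 pools a genotype, *Elovl2* and *Elovl4* are limited by counting.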
